A study of Mus musculus with 16 samples.

Results

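The genes of glycolysis and lactate export described here are Slc2a1, Hk2, Pfkp, Pfkfb3, Aldoa, Pgk1, Pgam1, Pdk1, Ldha and Slc16a3. They were chosen by symbol, as the rows of the expression table whose mouse Ensembl identifier carries 1 of these 10 names, out of 24334 genes in the table. The names match 11 rows, because Aldoa has a second identifier. That second row, ENSMUSG00000114515.3, lay between 4.84 and 5.79, near the lowest value of the table, and did not pass the filter on low values; the other 10 rows all passed and are the genes described. The 10 names were chosen with earlier results in view, in which glycolysis genes lay lower in MYCi975 than in Vehicle. The values of that comparison are therefore given as a description with no test.

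The samples are tumour cells enriched from mice that bore tumours of LLC1, a mouse Lewis lung carcinoma line, after 16 days of treatment. The groups are Vehicle (DMSO), TMP195 at 50 mg/kg, an inhibitor of class IIa histone deacetylases, MYCi975 at 50 mg/kg, an inhibitor of the transcription factor MYC, and Combo, both compounds together, whose single doses are not stated. Each group holds 4 libraries, 16 in all. The labels give no strain, sex or age of the animals and name no enrichment marker. They do not say whether each library came from 1 mouse. A p-value here therefore sets a difference only against how far libraries of the same group lie apart, and that distance may be technical. The spread was estimated from all 16 libraries together, so groups outside a comparison also shape its p-values. RNA was total RNA of the whole enriched population, and fewer cells of a type and less RNA per cell cannot be told apart in it.

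Glycolysis splits glucose to pyruvate in the cytosol, and tumour cells often turn much of that pyruvate into lactate and export it. Both MYC and the hypoxia-inducible factors (HIF) are known to bind and induce many genes of the pathway, MYC with its partner MAX at the E-box CACGTG and HIF at sites with the core ACGTG or GCGTG. The genes cover the path from end to end. Slc2a1 encodes the glucose carrier GLUT1 and Hk2 the hexokinase that traps glucose in the cell. Pfkp is a subunit of phosphofructokinase, and Pfkfb3 makes the fructose bisphosphate that activates it. Aldoa, Pgk1 and Pgam1 are the aldolase, the phosphoglycerate kinase and the phosphoglycerate mutase of the following steps. Pdk1 is a kinase that switches off pyruvate dehydrogenase and so keeps pyruvate out of the mitochondrion, Ldha makes lactate, and Slc16a3 encodes the lactate exporter MCT4.

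The promoters of 4 of these genes are shown because the values below turn on them: Pdk1, Slc16a3 and Pfkp had the smallest p-values among the 10 in the comparison of Combo with TMP195, and Ldha alone holds more than 1 E-box. Each is the stretch of 250 bases before the start site in the RefSeq annotation of GRCm38.p6, written 5′ to 3′ along the gene, with every match of the E-box or of either HIF core, read on both strands, in capitals. The second match in Pdk1 runs past the start site. Pdk1 and Ldha each have 2 start sites in the table, and the window with more matches is shown: the other window of Pdk1 (chr2:71874654-71874903) holds none of the motifs, and the other of Ldha (chr7:46846832-46847081) holds GCGTG but no E-box.
Pdk1, GRCm38.p6 chr2:71872974-71873223, plus strand: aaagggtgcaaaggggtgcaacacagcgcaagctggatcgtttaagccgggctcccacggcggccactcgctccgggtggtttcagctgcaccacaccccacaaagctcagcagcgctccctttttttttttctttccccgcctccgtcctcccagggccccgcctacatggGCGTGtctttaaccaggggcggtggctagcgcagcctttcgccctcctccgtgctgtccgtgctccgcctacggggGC
Slc16a3, GRCm38.p6 chr11:120948817-120949066, plus strand: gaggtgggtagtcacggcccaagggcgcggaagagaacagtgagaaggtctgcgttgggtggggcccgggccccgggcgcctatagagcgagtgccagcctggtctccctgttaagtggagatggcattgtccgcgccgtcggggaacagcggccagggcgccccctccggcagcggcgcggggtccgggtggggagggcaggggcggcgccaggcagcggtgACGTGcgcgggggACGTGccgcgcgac
Pfkp, GRCm38.p6 chr13:6648772-6649021, minus strand: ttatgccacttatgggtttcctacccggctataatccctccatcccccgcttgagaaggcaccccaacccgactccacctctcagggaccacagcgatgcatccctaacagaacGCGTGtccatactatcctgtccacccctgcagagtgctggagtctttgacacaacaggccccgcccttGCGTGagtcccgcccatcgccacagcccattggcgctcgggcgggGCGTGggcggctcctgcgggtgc
Ldha, GRCm38.p6 chr7:46845554-46845803, plus strand: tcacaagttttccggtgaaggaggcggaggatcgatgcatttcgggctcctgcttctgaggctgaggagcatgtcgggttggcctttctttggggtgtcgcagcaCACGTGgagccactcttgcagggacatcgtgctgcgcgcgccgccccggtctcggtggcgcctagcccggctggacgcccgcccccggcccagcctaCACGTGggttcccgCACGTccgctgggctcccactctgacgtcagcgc
Over windows of 300 bases, from 250 before to 50 after the start, all 10 genes matched an entry, with 15 start sites among them. CACGTG was in the windows of 2 of the 10 genes, Ldha with 2 copies and Pfkfb3 with 1, against 8.1% of all 27025 genes of the table of promoters. ACGTG, which is also part of CACGTG, was in windows of 8 of 10 genes against 21.8%, and GCGTG in 6 of 10 against 35.2%. Either core was in at least 1 window of all 10 genes, against 46.7% of all genes. These are matches of letters and no measure of binding, and genes with several start sites had several chances of a match.

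The depth per library is unknown, since the values were deposited after variance stabilisation, on a scale close to log2. In it the genes at the lowest value numbered from 1960 to 3130 per library. On the first principal component, with 21.2% of the variance, replicate 4 of Vehicle, TMP195 and MYCi975 stood apart, with scores of 33.2, 32.0 and 26.6 against at most 5.90 elsewhere. Of the 6 epithelial markers, Epcam and Cldn4 sat at the floor of the table in 8 or more libraries. Of the same list 3 passed the filter on low values, and the mean of the list was between 6.82 and 7.82. The mean of fibroblast and pericyte markers was between 9.56 and 10.6. The mean of 9 leukocyte markers was highest in TMP195 replicate 1 (7.88) and MYCi975 replicate 3 (7.45), against 6.27 to 7.20 in the other 14. Among these markers Arhgap30 had group means from 11.13 to 11.41, and Cd53 from 5.77 to 6.58, nearer the lowest value. All 10 genes lay well above the lowest value of 4.84, the lowest of them, Slc16a3, at 8.09 or more. Levels are not per gene length, so they are compared between libraries and not between genes.

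The glucose carrier had the widest spread within groups. Slc2a1 (ENSMUSG00000028645.12) was at 13.56, 13.19, 13.68 and 12.22 in Vehicle replicates 1 to 4 and at 13.35, 14.05, 13.81 and 12.75 in TMP195. It was at 13.32, 12.84, 12.67 and 12.86 in MYCi975 and at 13.56, 12.79, 12.83 and 12.81 in Combo. All 4 groups overlapped, and the Vehicle spread alone, 13.17 ± 0.66 (SD, n = 4), was wider than any difference between group means. Hk2 (ENSMUSG00000000628.11) was at 12.60, 12.50, 12.74 and 12.23 in Vehicle and at 12.73, 12.91, 12.75 and 12.24 in TMP195. Its values were 12.70, 12.34, 12.64 and 12.47 in MYCi975 and 12.91, 11.93, 12.37 and 12.12 in Combo. The groups of Hk2 overlapped in full, and Combo held both the lowest library and, level with TMP195 replicate 2, the highest.

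Pfkp and Pfkfb3 were highest in TMP195 and lowest in Combo by group mean. Pfkp (ENSMUSG00000021196.15) was at 11.56, 11.38, 11.81 and 11.34 in Vehicle, at 11.67, 12.40, 12.02 and 11.40 in TMP195, at 11.68, 11.19, 11.32 and 11.56 in MYCi975 and at 11.65, 11.11, 11.02 and 11.19 in Combo. TMP195 replicates 2 and 3 were the 2 highest libraries, and the lowest were Combo replicates 2, 3 and 4 and MYCi975 replicate 2, at 11.19 or below. Pfkfb3 (ENSMUSG00000026773.20) was at 9.86, 10.21, 9.92 and 9.46 in Vehicle, at 9.88, 10.90, 10.40 and 10.06 in TMP195, at 9.96, 9.88, 9.66 and 10.22 in MYCi975 and at 10.20, 9.13, 9.96 and 9.45 in Combo. Here too TMP195 replicates 2 and 3 were highest, and TMP195 and Combo ranged most widely. Aldoa (ENSMUSG00000030695.17) was at 13.38, 13.23, 13.44 and 13.31 in Vehicle, at 13.32, 13.72, 13.76 and 13.20 in TMP195, at 13.36, 12.98, 13.04 and 13.27 in MYCi975 and at 13.25, 13.10, 13.08 and 13.26 in Combo. The same 2 TMP195 libraries stood highest, and the remaining values of Aldoa overlapped.

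In the lower part of the path Pgam1 separated the libraries by MYCi975, while the groups of Pgk1 overlapped. Pgam1 (ENSMUSG00000011752.8) was at 14.02, 14.23, 14.14 and 14.08 in Vehicle and at 13.93, 14.22, 14.34 and 13.95 in TMP195. It was at 13.78, 13.91, 13.40 and 13.80 in MYCi975 and at 13.89, 13.78, 13.76 and 13.82 in Combo. All 8 libraries that received MYCi975 thus lay below all 8 that did not, although the nearest libraries, MYCi975 replicate 2 and TMP195 replicate 1, were 13.91 and 13.93. It was the only gene of the 15715 tested to do so (0.00636%); the MYCi975 and Vehicle libraries, among which the 10 genes were picked, are part of this split, so it is a description. Pgk1 (ENSMUSG00000062070.13) was at 13.85, 13.81, 13.97 and 13.67 in Vehicle, at 13.54, 14.13, 14.14 and 13.56 in TMP195, at 13.75, 13.58, 13.09 and 13.44 in MYCi975 and at 13.84, 13.49, 13.40 and 13.59 in Combo. For Pgk1, MYCi975 replicate 3 was lowest and TMP195 replicates 2 and 3 were highest.

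At the fate of pyruvate, Pdk1 (ENSMUSG00000006494.12) was at 11.30, 11.50, 11.48 and 11.57 in Vehicle and at 11.16, 11.14, 10.47 and 11.05 in MYCi975. It was at 11.08, 11.08, 11.01 and 10.95 in Combo and at 10.89, 11.90, 11.82 and 11.79 in TMP195. All 8 libraries with MYCi975 lay below all 4 Vehicle libraries and below 3 of the 4 TMP195 libraries, and TMP195 replicate 1 lay below all of Combo. Of all genes, 0.706% lay below Vehicle without overlap in MYCi975 and 1.53% in Combo. The share for both at once was not computed, and the split of Pdk1 is a description, as for Pgam1. Ldha (ENSMUSG00000063229.16) was at 14.39, 14.24, 14.32 and 14.17 in Vehicle, at 14.12, 14.45, 14.53 and 13.97 in TMP195, at 14.08, 13.99, 13.72 and 14.03 in MYCi975 and at 14.28, 13.93, 13.98 and 14.09 in Combo. MYCi975 lay below Vehicle without overlap, whereas Combo replicate 1 and TMP195 replicates 1 and 4 fell within the range of other groups. Slc16a3 (ENSMUSG00000025161.17) was at 8.92, 8.46, 9.13 and 8.42 in Vehicle, at 9.02, 9.48, 8.73 and 8.66 in TMP195, at 8.73, 8.24, 8.51 and 8.74 in MYCi975 and at 8.38, 8.09, 8.24 and 8.44 in Combo. The highest Combo library of Slc16a3 lay below the lowest TMP195 library.

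**Figure D1:**
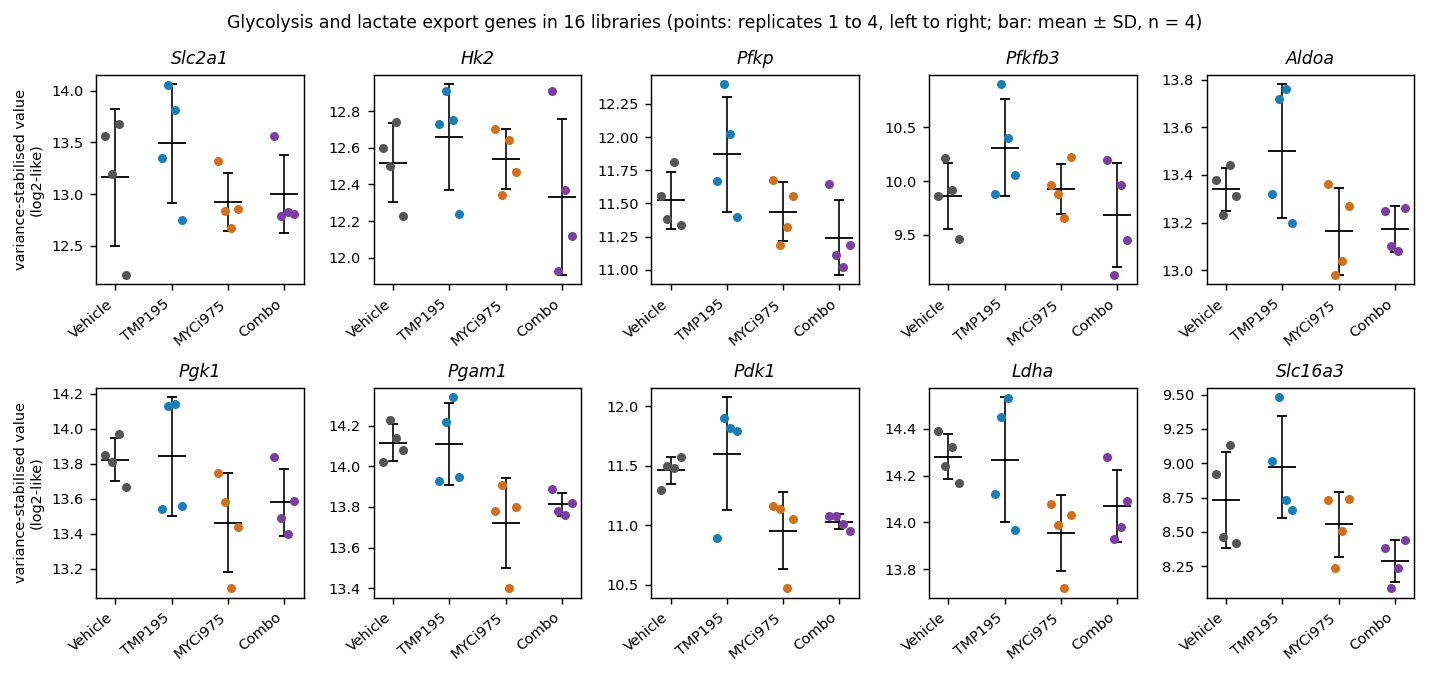
Variance-stabilised value (log2-like, vertical axis) of each of the 10 genes by group (horizontal axis); points are the 4 libraries of a group in order of replicate number, and bars give the mean ± SD (n = 4). Pgam1 separates the 8 libraries with MYCi975 from the 8 without, and Pdk1 separates them from Vehicle. The genes were picked among the MYCi975 and Vehicle libraries, so both splits are descriptions.

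Many of the genes were high or low together in single libraries. The deviation from the Vehicle mean, averaged over the 10 genes, was 0.53 in TMP195 replicate 2 and 0.35 in TMP195 replicate 3, but -0.04 and -0.12 in TMP195 replicates 1 and 4. In Combo it was -0.44, -0.32 and -0.31 in replicates 2, 3 and 4 and 0.02 in replicate 1. In MYCi975 it ran from -0.43 in replicate 3 to -0.03 in replicate 1. All 10 genes lay below their Vehicle mean in Combo replicates 2 and 4, and all 10 lay above it in TMP195 replicate 2 and Vehicle replicate 3. In 1 library of Combo and 2 of TMP195 the genes thus lay close to Vehicle or on the other side of it from the rest of their group.

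**Figure D2:**
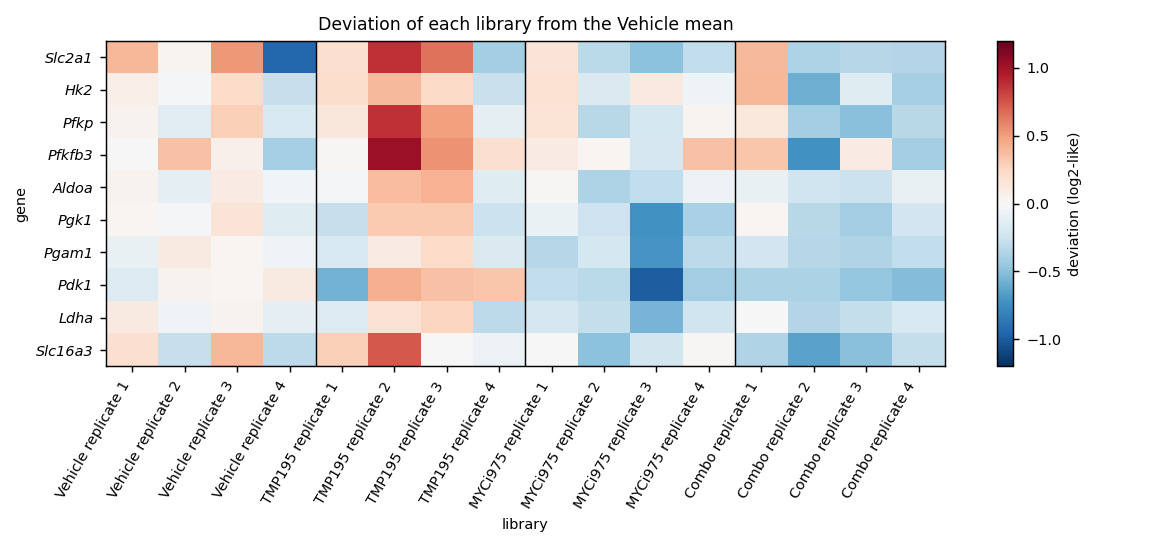
Deviation of each gene (rows) in each library (columns, groups parted by black lines) from the mean of the 4 Vehicle libraries, on the log2-like scale. TMP195 replicates 2 and 3 are above the Vehicle mean in 10 and 9 of the 10 genes, and Combo replicates 2 and 4 are below it in all 10.

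MYCi975 against Vehicle asks what MYC inhibition alone does, and is the comparison in which the genes were first picked out. Of the 10 genes, 8 lay below Vehicle, where 52.9% of all genes did, with a median difference of -0.21 against -0.01 over all 15715 genes tested. The largest differences were those of Pdk1 (-0.51, standard error (SE) 0.19), Pgam1 (-0.39, SE 0.12), Pgk1 (-0.36, SE 0.16) and Ldha (-0.32, SE 0.13). The smallest were those of Hk2 (0.02, SE 0.19) and Pfkfb3 (0.07, SE 0.24), both above Vehicle, and Pfkp (-0.09, SE 0.19). Slc2a1 (-0.24), Aldoa (-0.18) and Slc16a3 (-0.18) lay between; the genes were chosen by name and not by a threshold. The median was -0.32 without Vehicle replicate 4, -0.11 without Vehicle replicate 3, -0.36 without all libraries numbered 4 and -0.16 without MYCi975 replicate 3. Slc2a1 differed by -0.56 without Vehicle replicate 4 and by -0.07 without Vehicle replicate 3, and Slc16a3 by -0.04 without the latter. Pgk1 differed by -0.24 without MYCi975 replicate 3. Leaving out 1 library turned the sign of Hk2 (-0.07) and Pfkfb3 (-0.07), both without Vehicle replicate 4, and of Pfkp (0.01 without Vehicle replicate 3). Of 7 tested leukocyte markers 6 lay above Vehicle in MYCi975 (median 0.20), and of 6 macrophage markers 2 did (median -0.09); their part in the result was not tested. No overlap with Vehicle was seen for 3 genes, Pdk1, Pgam1 and Ldha, where 0.706% of all genes tested lay lower without overlap. No gene of the table passed an adjusted p of 0.05 in this comparison by limma (0%), and 476 genes, 3.03%, were at an unadjusted p under 0.05, 1.51% in the lower direction.

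Adding MYCi975 to TMP195 asks the same question with group means from libraries that the first comparison did not use. The doses in Combo are not stated, so Combo and TMP195 may also differ in the dose of TMP195. Combo and TMP195 share no library with MYCi975 and Vehicle. The standard errors and p-values, however, come from the fit to all 16 libraries, those of the first comparison included. The genes were also chosen with earlier results of these data known, so the counts below are not fully independent support. Within groups, 43 of 45 pairs of the 10 genes were correlated above 0 (median 0.612). Counts out of 10, in any comparison here, are therefore not counts of separate observations. All 10 genes lay lower in Combo than in TMP195, where 49.3% of all genes tested did, with a median difference of -0.41 against 0.003 over all genes. The largest was that of the lactate exporter Slc16a3, -0.69 (SE 0.19, 95% confidence interval -1.09 to -0.28, limma adjusted p = 0.58). It was followed by Pfkp at -0.63 (SE 0.19, limma adjusted p = 0.649), Pfkfb3 at -0.62 (SE 0.24, limma adjusted p = 0.83) and Pdk1 at -0.57 (SE 0.19, limma adjusted p = 0.679). None of the 10 passed the test, and 0% of all genes did. At an unadjusted p under 0.05 there were 6 of the 10, all lower, against 2.84% of all genes in that direction and 5.33% in either. These were Slc16a3, Pfkp, Pdk1, Pfkfb3, Aldoa (-0.33, SE 0.13) and Pgam1 (-0.30, SE 0.12). No overlap was seen for 2 of the 10, Pgam1 and Slc16a3, where 1.62% of all genes lay lower without overlap. Without all libraries numbered 4 that count was 4 of 10, against 5.73% of all genes with 3 libraries a group.

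**Figure D3:**
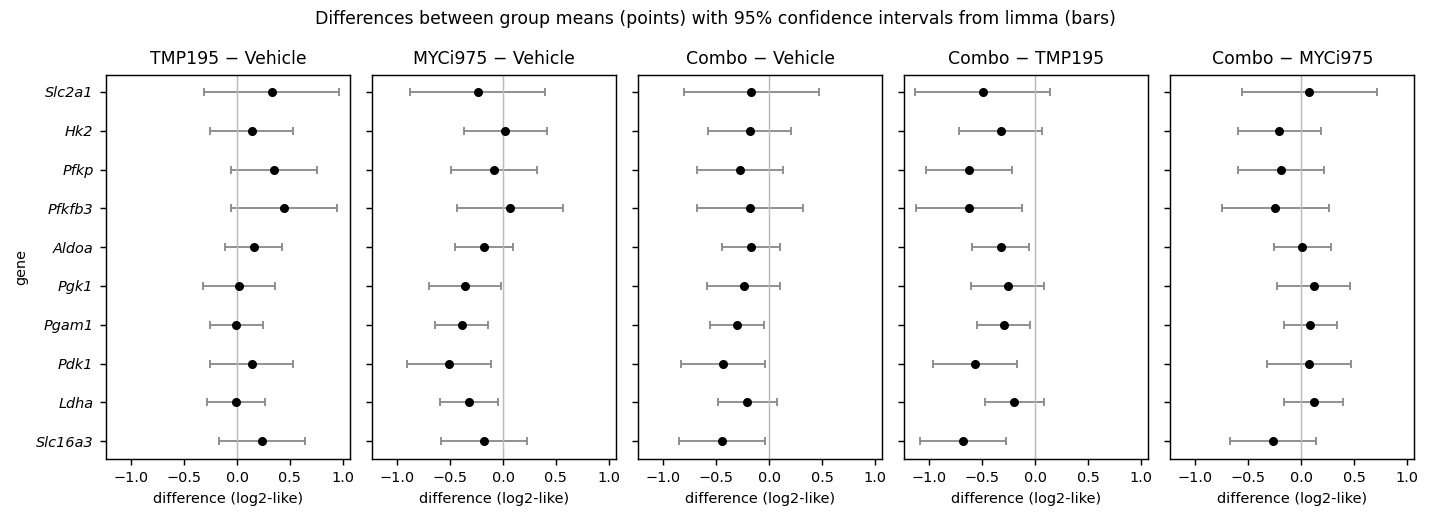
Difference between group means (points, log2-like scale, horizontal axis) with 95% confidence intervals from limma (bars) for the 10 genes (rows) in 5 comparisons. All 10 points lie below 0 in Combo minus TMP195, and the 4 largest in MYCi975 minus Vehicle are Pdk1, Pgam1, Pgk1 and Ldha. The genes were picked in MYCi975 minus Vehicle, so its bars are a description and no test.

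Pdk1 was called in some settings only, and in none that left out a single library. Its 2 lowest libraries relative to their groups, TMP195 replicate 1 (10.89) and MYCi975 replicate 3 (10.47), were the 2 highest in leukocyte markers. When both were left out, a choice based on the markers in earlier results of these data, Pdk1 differed by -0.81 (SE 0.09, limma adjusted p = 0.00463) between Combo and TMP195. It was then the only 1 of 15715 genes to pass in that comparison. It was also the only gene to pass between MYCi975 and TMP195 (-0.72, SE 0.10, limma adjusted p = 0.0451), a comparison that shares the MYCi975 libraries with the one in which the genes were picked and so gives no independent support. Leaving these libraries out removes the values of Pdk1 farthest from their groups, so the smaller standard error follows in part by construction. The larger difference between Combo and TMP195 does too, because TMP195 replicate 1 (10.89) lay below all Combo libraries. Neither call is therefore independent support. Without TMP195 replicate 1 alone the difference from Combo was -0.81 as well, with limma adjusted p = 0.217. Over all alternatives the adjusted p of Pdk1 in Combo against TMP195 ran from 0.00463 to 1. With sample quality weights Pdk1 (-0.70, limma adjusted p = 0.0493) and Pfkp (-0.89, limma adjusted p = 0.0323) were called, among 65 genes of the table.

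TMP195 against Vehicle asks what class IIa HDAC inhibition alone does, and it shares the Vehicle libraries with the first comparison. Of the 10 genes, 8 lay above Vehicle, where 53.7% of all genes lay below, with a median difference of 0.15 against -0.01. Pfkfb3 (0.45, SE 0.24) and Pfkp (0.35, SE 0.19) differed most, each with a limma adjusted p of 0.945, followed by Slc2a1 (0.33, SE 0.30) and Slc16a3 (0.24, SE 0.19). Pgk1 (0.02, SE 0.16), Pgam1 (-0.01, SE 0.12) and Ldha (-0.01, SE 0.13) differed from Vehicle by less than 0.02, with intervals of -0.33 to 0.36, -0.26 to 0.25 and -0.29 to 0.27, and with each library centred on its median Pgam1 (0.04) and Ldha (0.03) lay above Vehicle. None of the 10 passed the test, and 0% of all genes did; at an unadjusted p under 0.05 there were 0 of the 10 and 4.88% of all genes, 2.44% in the lower direction. None of the 10 was free of overlap in either direction, against 1.10% of all genes that lay higher and 1.40% that lay lower without overlap. The median was 0.06 without TMP195 replicate 2, 0.09 without TMP195 replicate 3 or Vehicle replicate 4, and 0.27 without TMP195 replicate 4. Without TMP195 replicate 2 Pfkp differed by 0.17, Pfkfb3 by 0.25 and Slc16a3 by 0.07, and without Vehicle replicate 4 Slc2a1 differed by 0.01. Leukocyte markers lay above Vehicle in 6 of 7 tested (median 0.76, 5 at an unadjusted p under 0.05) and macrophage markers in 6 of 6 (median 0.90, 4 at that level), none with an adjusted p under 0.05; their part in the result was not tested.

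Combo against Vehicle, which shares Vehicle with both comparisons of a single compound, had all 10 genes below Vehicle, where 52.6% of all genes lay below. The genes were picked as lower in MYCi975 than in these Vehicle libraries, so the counts of this comparison are no independent support. The median difference was -0.22 against -0.01. Slc16a3 (-0.45, SE 0.19), Pdk1 (-0.43, SE 0.19) and Pgam1 (-0.31, SE 0.12) differed most, each with a limma adjusted p of 0.987. None of the 10 passed the test, 0% of all genes did, and the 3 just named were at an unadjusted p under 0.05, against 1.92% of all genes that were lower at that level and 4.09% in either direction. Pdk1 and Pgam1 lay below Vehicle in 4 of 4 Combo libraries without overlap, against 1.53% of all genes. Without Combo replicate 1 the median was -0.35.

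Combo and MYCi975 were close for the genes of the lower path. Pgam1 differed by 0.09 (95% confidence interval -0.16 to 0.34), Pgk1 by 0.12 (-0.23 to 0.46), Ldha by 0.12 (-0.16 to 0.39) and Pdk1 by 0.07 (-0.32 to 0.47). At their upper ends these intervals reach beyond the size of the MYCi975 difference from Vehicle for Pgk1 and Ldha and stop short of it for Pgam1 and Pdk1. Slc16a3 (-0.27, SE 0.19), Pfkfb3 (-0.24, SE 0.24), Hk2 (-0.21, SE 0.19) and Pfkp (-0.19, SE 0.19) lay lower in Combo. None of the 10 passed the test, and 0% of all genes did (2.32% at an unadjusted p under 0.05, 1.18% lower, none of them among the 10). Of the 10 genes 4 lay below MYCi975, near the 49.8% of all genes, and none lay below it without overlap, as 0.815% of all genes did. Between the single compounds, all 10 genes lay lower in MYCi975 than in TMP195, with a median of -0.38 and 48.5% of all genes lower. This comparison holds the MYCi975 libraries in which the genes were picked as low, so its counts are no independent support. None of the 10 passed, where 0.00636% of all genes did, the single gene Cd93, named here after its value was seen. At an unadjusted p under 0.05, 7 of the 10 lay lower, led by Pdk1 (-0.64, SE 0.19) and Pgam1 (-0.39, SE 0.12), against 2.80% of all genes in that direction and 5.26% in either. Pgam1 alone lay lower without overlap, as 1.13% of all genes did. All 6 tested macrophage markers also lay lower (median -0.94), as did 6 of 7 leukocyte markers (median -0.59), and their part in the result was not tested.

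Whether MYCi975 acts differently with and without TMP195 is the interaction, Combo minus MYCi975 minus TMP195 plus Vehicle, which holds the libraries of the first comparison. It takes the doses in Combo, which are not stated, to be those of the single compounds. Of the 10 genes 7 lay below 0, where 48.2% of all genes did. Pfkfb3 (-0.69, SE 0.34), Pfkp (-0.54, SE 0.27) and Slc16a3 (-0.51, SE 0.27) lay below it and Pgam1 (0.09, SE 0.17), Pgk1 (0.10, SE 0.23), Ldha (0.13, SE 0.19) and Pdk1 (-0.06, SE 0.27) near it. Each had a limma adjusted p of 0.9999, 0% of all genes passed, and none of the 10 was at an unadjusted p under 0.05, against 471 of all 15715 genes, 1.60% in the lower direction. Whether the phosphofructokinase genes and the lower path differ in it was not tested.

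The other genes of the pathway were counted from a list of 21 glycolysis enzymes, of which 14 passed the filter on low values. In MYCi975 against Vehicle 12 of the 14 lay lower, with a median of -0.16, and Gapdh, the dehydrogenase before Pgk1 (-0.30), Aldoc (-0.31) and Pfkl, the liver phosphofructokinase subunit (-0.28), differed most. In Combo against TMP195 10 of 14 lay lower, with a median of -0.11, led by Pfkl (-0.36, SE 0.15), Gpi1 (-0.26) and Pkm, the pyruvate kinase (-0.25), while Gapdh (0.003) and Aldoc (-0.003) were level. None of these genes passed the test in either comparison.

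Paralogs of the chosen genes lay on both sides between Combo and TMP195. Pfkl, given above, lay lower as Pfkp did. So did 2 genes named after their values were seen, Hk1 beside Hk2 (-0.24, SE 0.12) and Pdk3 beside Pdk1 (-0.20, SE 0.12). Pfkm, the remaining phosphofructokinase subunit gene and also named after its values were seen, did not. Its group means were 9.94 in TMP195 and 10.01 in Combo. All 3 other glucose carriers tested, Slc2a3, Slc2a8 and Slc2a10, lay higher in Combo than in TMP195, where Slc2a1 lay lower. Their differences were 0.14 (SE 0.17), 0.22 (SE 0.23) and 0.34 (SE 0.16). Pfkfb4 lay higher by 0.28 (SE 0.22), where Pfkfb3 lay lower. The kinase Pdk2, which acts on the same enzyme as Pdk1, lay higher by 0.55 (SE 0.15, limma adjusted p = 0.58), and Pdk4 by 0.30 (SE 0.18). Group means in TMP195 and Combo were 6.17 and 6.72 for Pdk2 and 5.88 and 6.18 for Pdk4. Those of Slc2a8 were 6.61 and 6.82, and those of Slc2a10 were 5.62 and 5.95. These lie nearer the lowest value of the table, where the scale compresses differences. Bsg, which encodes the chaperone basigin that carries the lactate transporters to the cell surface, lay lower by 0.33 (SE 0.13, limma adjusted p = 0.843), and the difference of the other lactate carrier Slc16a1 was -0.12 (SE 0.17). Of 13 genes of pyruvate entry to the mitochondrion 7 lay lower and 6 higher (median -0.004), and of 17 genes of the TCA cycle, which burns the product, 7 lay lower and 10 higher (median 0.02). None of them passed the test, and the differences between paralogs were not tested.

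**Figure D4:**
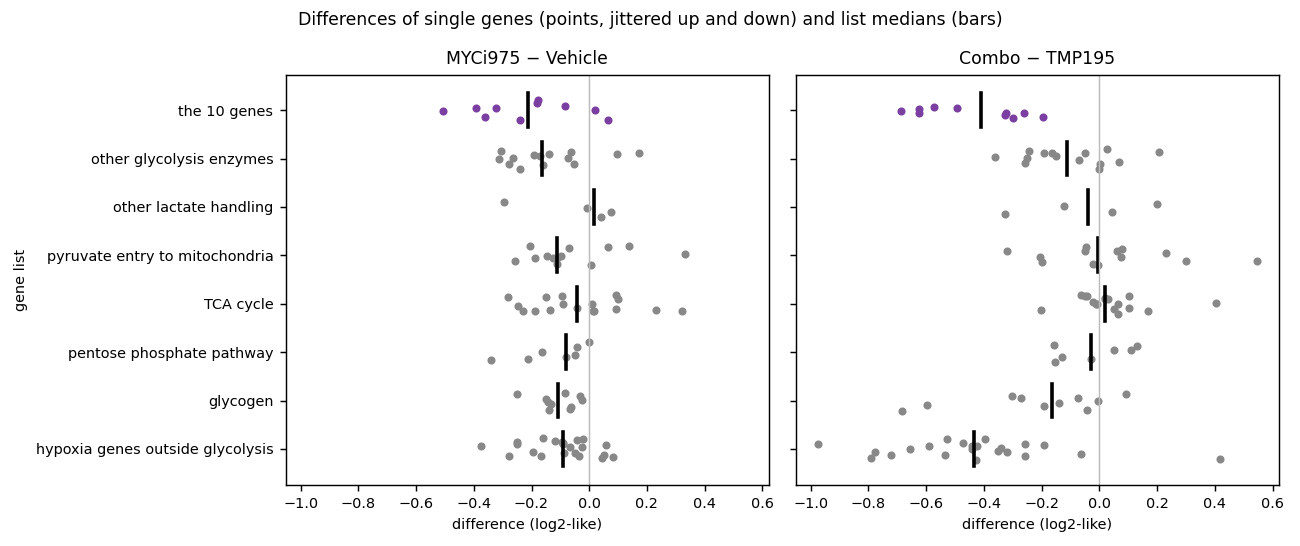
Differences of single genes (points, shifted up and down at random to be seen) and list medians (bars) on the log2-like scale for the 10 genes and 7 other lists of the pathway and its neighbours, in MYCi975 minus Vehicle (left) and Combo minus TMP195 (right). The 10 genes and the hypoxia genes outside glycolysis have medians of -0.41 and -0.44 on the right, and -0.21 and -0.09 on the left.

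Hypoxia genes outside glycolysis moved with the 10 genes across libraries. In Combo against TMP195 21 of 22 tested lay lower, with a median of -0.44, led by Car9, a carbonic anhydrase induced by low oxygen (-0.97, SE 0.20, limma adjusted p = 0.325), Ero1l (-0.79, SE 0.26) and the vasodilator peptide gene Adm (-0.78, SE 0.26). In TMP195 against Vehicle 20 of 22 lay higher, with a median of 0.25. In MYCi975 against Vehicle 18 of 22 lay lower, but with a median of -0.09, against -0.21 for the 10 genes. With the group means taken out, the mean of the 10 genes and that of the hypoxia list had a Pearson correlation of 0.851 over 16 libraries, and 0.812 without the 2 libraries farthest from the median of the hypoxia list. Aldoa (0.852), Pfkp (0.843) and Ldha (0.779) followed the hypoxia list most closely, and Pdk1 (0.453) and Hk2 (0.493) least. These correlations describe libraries that share depth and cell content within each point, and are no test, and the part of the hypoxia genes in the result was not tested. The transcripts of the factors themselves, Hif1a and Epas1, differed between Combo and TMP195 by -0.18 (SE 0.18) and 0.08 (SE 0.16), and Myc by -0.32 (SE 0.21). None of them passed.

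Leukocyte markers also lay lower in Combo than in TMP195. Of 9 markers of all leukocytes, 7 were tested and 6 of them lay lower, with a median of -0.81, among them Ptprc, the surface protein CD45 (-1.40, SE 0.43, limma adjusted p = 0.634). The list means were 6.36 to 6.68 in Combo and 6.67 to 7.88 in TMP195, and no marker of this list was at the lowest value in 8 or more libraries. Of 12 macrophage markers 6 were tested and all 6 lay lower (median -0.73), and of 7 tested neutrophil markers 6 lay lower (median -0.58). Within groups the correlation with the leukocyte list over 16 libraries was -0.785 for Pdk1, -0.724 for Pgam1 and -0.679 for Pgk1, and 0.106 for Slc16a3. Without TMP195 replicate 1 and MYCi975 replicate 3 it was -0.307 for Pdk1, -0.431 for Pgam1, -0.423 for Pgk1 and 0.168 for Slc16a3. With the leukocyte mean as a covariate the median of the 10 genes in Combo against TMP195 was -0.59, beside -0.41, and Pdk1 differed by -0.96. The leukocyte mean itself differed between these groups, so covariate and group are in part confounded, and the part of the markers in the result was not tested.

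**Figure D5:**
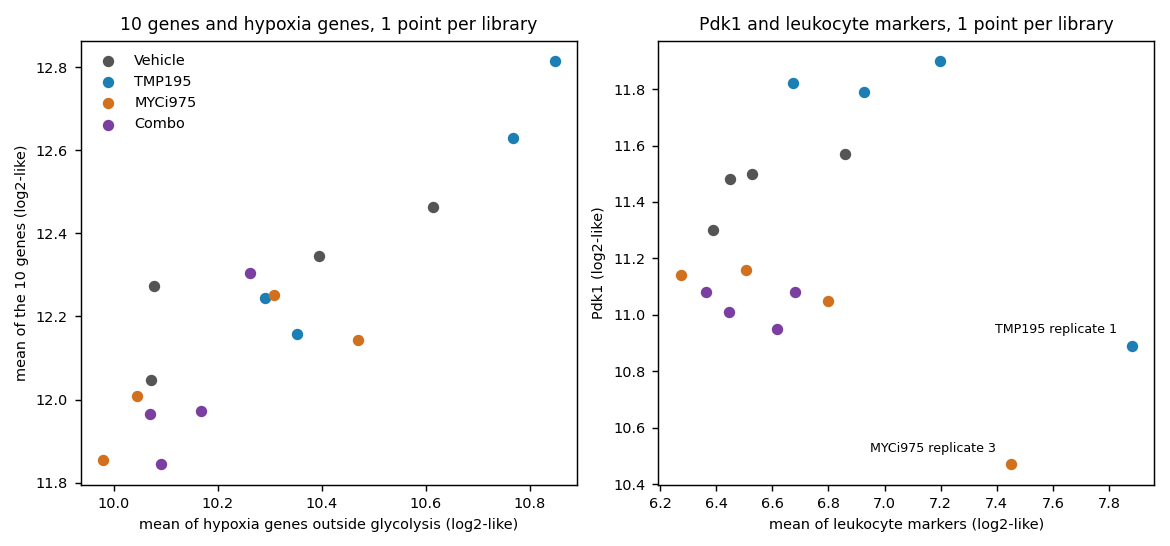
Left, mean of the 10 genes (vertical axis) against the mean of the hypoxia genes outside glycolysis (horizontal axis); right, Pdk1 (vertical axis) against the mean of the leukocyte markers (horizontal axis); 1 point per library, coloured by group, all axes log2-like. TMP195 replicate 1 and MYCi975 replicate 3, at 7.88 and 7.45 in leukocyte markers, are the lowest libraries of Pdk1 at 10.89 and 10.47.

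How closely the 10 genes kept together within groups was described by the correlation of each pair over the 16 libraries, with the group means taken out. It was above 0 in 43 of 45 pairs, with a median of 0.612, and was highest for Pgk1 with Ldha (0.925) and Pfkp with Aldoa (0.863). It was lowest for Pdk1 with Hk2 (-0.102) and with Slc16a3 (-0.061). The named genes outside the 10 that followed their mean most closely over the 16 libraries, taken in the order of that correlation and leaving out predicted genes, were Sap30 (0.941), a subunit of a histone deacetylase complex, Fam129b (0.934) and Hilpda (0.933), a lipid droplet protein of the hypoxia list. They were followed by Ier3 (0.915), the phosphatase gene Dusp4 (0.909), Ndrg1 (0.906) of the hypoxia list, the nucleotide receptor gene P2ry2 (0.890) and Max (0.886), which encodes the partner of MYC. Over all 15705 other genes tested the median correlation was -0.004, and 63 genes reached 0.8. Max itself differed between groups by at most 0.08 in any of the 7 comparisons, so its likeness is among libraries of a group.

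Some of these transcripts have near-identical copies. In the transcripts of GENCODE M21, 54.7% of the distinct stretches of 31 bases of Pgk1 are also in other genes, 37.1% of Pgam1, 19.6% of Ldha and 17.0% of Aldoa, for example in Pgk1-rs7 and Pgam1-ps2, all of whose stretches are also in Pgk1 and Pgam1. Reads from these genes could be divided between copies, so their values are less certain. The share was at most 0.6% for Pdk1, Slc16a3, Pfkp, Pfkfb3, Slc2a1 and Hk2.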

How the data were processed

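RNA-seq of 16 libraries of enriched LLC1 tumour cells was available as 1 table of log2-like values per gene, deposited by the authors after variance stabilisation. Transcripts were quantified with Salmon, per the submitters' processing notes, which name the build hg38 although the identifiers are mouse Ensembl identifiers; for the annotation, the stabilising tool and its settings the sources used here give nothing. Counts and depth were not used. Symbols were matched to 23150 of 24334 identifiers (95.13%), and 0 columns of the table were left out.

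Tested were the 15715 genes that exceeded the lowest value (4.842) by 1 log2 unit or more in 4 or more libraries. limma 3.58.1 in R 4.3.3 fitted 1 mean per group over all 16 libraries with an intensity trend. All p-values are two-sided and adjusted by Benjamini-Hochberg over all tested genes in each of 7 comparisons, with 0.05 as the threshold for a call. The code was tested on simulated data. Differences are on the deposited scale, which compresses those of low genes. Groups were said not to overlap where all values of one lay beyond all of the other. Alternatives were no filter or a stricter one (2 units in 8 libraries), no trend, robust moderation, quantile normalisation, median centring, library weights, a replicate block, the leukocyte mean as a covariate, the compared groups alone, and leaving out libraries.

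The 10 genes, the other lists and the alternatives were chosen with earlier results of these data known. Named were the 10 genes, 9 preset genes, from each other pathway list up to 3 with the largest difference in MYCi975 against Vehicle and in Combo against TMP195, and the 8 named genes most like the 10 by correlation. Promoters came from RefSeq on GRCm38.p6 and shared stretches of sequence from GENCODE M21, neither stated to be the annotation of the authors.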

Additional observations from a re-analysis of the deposited data

Results flagged for a closer look

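In 40 groups of 4 libraries (10 genes in 4 groups) the highest or lowest library was compared with the others by Dixon's test. A library stood far from the rest of its group in 3 of them, and chance alone marks about 1 in 20 groups. Slc2a1 was at 13.56 in Combo replicate 1, above 12.79 to 12.83 in the other 3. Pdk1 was at 10.89 in TMP195 replicate 1, below 11.79 to 11.90 in the other 3, and at 10.47 in MYCi975 replicate 3, below 11.05 to 11.16 in the other 3. Both libraries of Pdk1 were the highest of the 16 in leukocyte markers, at 7.88 and 7.45.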

How the results depend on the processing

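Depth is unknown, so counting error could not be set beside any value, and 4 libraries a group gave a median standard error of 0.16 over all genes in Combo against TMP195. Among the alternatives for the counts of called genes and for the medians of the 10 genes, 3 moved and 289 did not, where a median counted as moved only beyond 0.22, the pooled SD of the mean of the 10 genes between libraries, and so could shift by over 1.5 times without being counted: in Combo against TMP195 2 of the 10 were called with library weights and 1 without TMP195 replicate 1 and MYCi975 replicate 3, and in MYCi975 against TMP195 1 without those libraries, against 0 otherwise and without any single library. Every median kept its sign when single libraries were left out except Combo against MYCi975 (-0.06 without Combo replicate 1). In Combo against TMP195 the median ran from -0.55 to -0.29 without single libraries, and was -0.47 without all libraries numbered 4 and -0.46 without the pair highest in leukocytes.

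Signs changed as follows, also for differences as far from 0 as those of Slc2a1 (-0.17) and Pfkfb3 (-0.18) in Combo against Vehicle and of Slc2a1 (-0.25) in the interaction. In MYCi975 against Vehicle, which has no test, leaving out 1 library turned Hk2 to -0.074, Pfkfb3 to -0.0679 and Pfkp to 0.0118. TMP195 against Vehicle gave for Pgam1 0.0245 after quantile normalisation, 0.0352 after centring, 0.085 with weights, 0.1748 with the leukocyte covariate and 0.035 without libraries numbered 4, and for Ldha, in the last 4 of these, 0.0318, 0.0673, 0.1516 and 0.0524. Combo against MYCi975 gave with weights and with the covariate -0.0283 and -0.0334 for Slc2a1 and -0.0083 and -0.021 for Aldoa, and -0.065 with the covariate for Pdk1. The interaction gave likewise -0.1016 and -0.2651 for Pgk1, -0.0231 and -0.1554 for Pgam1, -0.0955 with the covariate for Ldha, and 0.0235 without libraries numbered 4 for Pdk1. Leaving out libraries, TMP195 against Vehicle ran from -0.0792 to 0.1199 for Pgk1, from -0.0826 to 0.0517 for Pgam1 and from -0.0983 to 0.0892 for Ldha. Combo against Vehicle ran from -0.4827 to 0.0053 for Slc2a1 and from -0.349 to 0.0067 for Pfkfb3. Combo against MYCi975 ran from -0.1128 to 0.205 for Slc2a1, -0.0515 to 0.0753 for Aldoa, -0.0048 to 0.2127 for Pgk1, -0.0185 to 0.1489 for Pgam1 and -0.0886 to 0.1423 for Pdk1. The interaction ran from -0.5002 to 0.0615 for Slc2a1, -0.1247 to 0.1976 for Pgk1, -0.0702 to 0.17 for Pgam1, -0.0023 to 0.2149 for Ldha and -0.2994 to 0.0355 for Pdk1. The cause was not tested.

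With the replicate number as a block the median in Combo against TMP195 stayed at -0.41, none of the 10 was called, and the single call of the table, Cd93 in MYCi975 against TMP195, was lost. The labels do not say that a number marks a shared animal or batch. Of same-numbered pairs 15 of 24 had correlated deviations over 0.1 (median 0.19), against 10 of 72 pairs with different numbers (median -0.04). Of the 16 libraries 9 were closest to their own number. The main fit and the correlations within groups were not adjusted for replicate number. Counts without overlap were repeated without libraries, a choice made after seeing the data. Without libraries numbered 4, 4 of the 10 lay lower in Combo against TMP195 and 5 in MYCi975 against TMP195 (5.88% of all genes). Without the pair highest in leukocytes these counts were 3 (3.79%) and 2 (3.91%).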

Other observations

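Glycogen genes, which store and release glucose units beside glycolysis, lay on the same side as the 10 genes more often than not. All 10 tested lay below Vehicle in MYCi975, with a median of -0.11, and 9 of 10 lay lower in Combo than in TMP195, with a median of -0.17. Gbe1, the branching enzyme, differed by -0.60 (SE 0.18, limma adjusted p = 0.634), Pygl, the liver glycogen phosphorylase, by -0.69 (SE 0.36) and Gys1, the muscle glycogen synthase, by -0.30 (SE 0.14) between Combo and TMP195. None passed the test. Pygl had group means of 6.05 in TMP195 and 5.36 in Combo, near the lowest value of the table, and Combo replicate 1 was at 4.84. Genes of the pentose phosphate pathway, which draws on glucose 6-phosphate, all lay below Vehicle in MYCi975 (7 of 7, median -0.08), led by G6pdx (-0.34), the first enzyme of that route. Between Combo and TMP195 4 of the 7 lay lower (median -0.03).

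Car9 lay higher in TMP195 than in each other group without overlap. So did 1.10% of all genes against Vehicle, 1.13% against MYCi975 and 1.62% against Combo. The share for these groups at once was not computed, and the hypoxia list that holds Car9 was chosen with earlier results of these data known. Car9 was at 7.75, 7.85, 7.52 and 7.88 in TMP195, at 7.09, 6.34, 7.18 and 6.69 in Vehicle, at 6.98, 6.37, 6.93 and 7.23 in MYCi975 and at 6.72, 7.0, 6.46 and 6.92 in Combo. Its interaction was -1.02 (SE 0.29, limma adjusted p = 0.9999). Unlike the mean of the 10 genes, it was high in all 4 TMP195 libraries.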
